A study of Mus musculus with 2 samples.

Results

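Solute carriers are the membrane proteins that move amino acids, sugars, ions, metals, vitamins and nucleosides into and out of cells and between the cytosol and organelles. They were chosen here by symbol: every gene of the form Slc, family number, a, member number, without the mitochondrial Slc25a family and without Slc7a11, Slc2a1, Slc2a3, Slc16a1, Slc16a3 and Slc22a18. This gave 171 of the 14500 genes in the table, in 45 families, which were placed in 15 substrate classes. A further 27 symbols that start with Slc have another form, such as Slc35b genes, and are outside the rule. The name "solute carriers of the cell membrane" does not cover all of them: 100 genes belong to families usually found in the plasma membrane, 56 to families found there and in organelles, and 15 to organelle families, such as the nucleotide sugar carriers of the Golgi.

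RNA was sequenced from 46C mouse embryonic stem cells, in which the Sox1 locus holds a green fluorescent reporter. The library titled PB-Gbx2 stands for cells transfected with a vector for the homeobox transcription factor Gbx2, and the library titled PB for cells with the empty vector. Both were grown on gelatin in serum medium with LIF, at passages 21 to 24. There was 1 library per group, so no value has a replicate error and no test between the libraries was possible. The source names in the labels contradict the titles, and if they were right every direction would turn around. Gbx2 stood at 1178 in the PB-Gbx2 library and 345 in the PB library, which goes with the titles. The files do not separate vector from endogenous Gbx2 transcripts.

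The unit is the authors' normalized level, rounded to a whole number, and the sorted levels of the 2 libraries are identical in each of the 14501 rows, so read depth is unknown and differences in the overall distribution cannot be seen. The 2-fold line was drawn where log2 of (PB-Gbx2 + 1)/(PB + 1) reached 1 or -1. The cells carried the markers of the label: Pou5f1 stood at 10597 in PB-Gbx2 and 9446 in PB, and Sox2 at 10302 in PB-Gbx2 and 9894 in PB. Of the 8 ES cell markers listed, 7 were higher in PB-Gbx2 (background 49.2% of all genes), with a summed level of 99959 in PB-Gbx2 and 69139 in PB. At least 2-fold higher were 3 of them: Nanog (19872 in PB-Gbx2 and 8918 in PB), Zfp42 (16671 in PB-Gbx2 and 8320 in PB) and Fbxo15 (2753 in PB-Gbx2 and 1324 in PB). The background was 5.14% of all genes at least 2-fold higher, and 1.98% past 2-fold in either direction among genes that reached 1000. The part of these markers in the carriers' values was not tested. Of the other marker lists, 4 of 8 fibroblast genes had a row (summed level 1032 in PB-Gbx2 and 1633 in PB), 5 of 6 neural genes (1781 in PB-Gbx2 and 2759 in PB), 2 of 6 trophoblast genes (2443 in PB-Gbx2 and 1484 in PB, nearly all of it Tfap2c) and 2 of 6 endoderm genes (113 in PB-Gbx2 and 54 in PB). The other trophoblast gene with a row, Krt7, went the other way from Tfap2c, at 4 in PB-Gbx2 and 43 in PB. In bulk RNA, fewer cells of a type and less RNA per cell cannot be told apart.

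As background, most carriers use a gradient kept up by pumps: the sodium-potassium pump holds sodium low inside the cell, and sodium-coupled carriers let it flow back in together with an amino acid, phosphate or a vitamin. Exchangers and uniporters pass solutes on or let them equilibrate. Stem cells that divide fast draw on these routes for amino acids, nucleosides, folate and phosphate, and heteromeric amino acid carriers need a glycoprotein heavy chain, Slc3a2, to reach the surface.

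Promoter sequence is shown for 3 carriers: the member with the lowest adjusted p in the authors' deposited table in each direction (Slc11a1 higher and Slc5a5 lower in PB-Gbx2), and Slc38a2, an abundant amino acid carrier that was higher in PB-Gbx2 and has TAATTA before its start. The bases run from 250 to 21 before the start of the gene, 5′ to 3′ on the gene's strand, from RefSeq on build GRCm38.p6, not the mm9 build named in the submitters' processing notes. Capitals mark TAAT or its reverse complement ATTA, the core bound by homeodomains such as that of Gbx2, and the longer TAATTA where present.
Slc11a1, chr1:74374953-74375182, plus strand: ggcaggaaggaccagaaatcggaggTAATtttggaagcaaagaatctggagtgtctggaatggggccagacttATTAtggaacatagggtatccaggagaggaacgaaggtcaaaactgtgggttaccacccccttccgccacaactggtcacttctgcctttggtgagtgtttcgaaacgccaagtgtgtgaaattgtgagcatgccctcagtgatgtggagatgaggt
Slc5a5, chr8:70892778-70893007, minus strand: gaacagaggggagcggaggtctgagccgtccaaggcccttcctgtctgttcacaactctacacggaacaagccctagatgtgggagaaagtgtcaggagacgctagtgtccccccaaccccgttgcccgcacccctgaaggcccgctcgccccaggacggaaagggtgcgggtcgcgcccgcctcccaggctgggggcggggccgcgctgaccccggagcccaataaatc
Slc38a2, chr15:96699749-96699978, minus strand: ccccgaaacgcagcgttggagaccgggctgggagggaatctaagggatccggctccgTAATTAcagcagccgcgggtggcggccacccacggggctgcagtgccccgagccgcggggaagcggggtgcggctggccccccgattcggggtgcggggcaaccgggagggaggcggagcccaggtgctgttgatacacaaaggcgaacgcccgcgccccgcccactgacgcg

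TAATTA, which reads the same on both strands, was searched in the 250 bases before each start. RefSeq windows were matched for 126 of the 171 carriers, and 6 of these (4.76%) held it, against 5.65% of all 27025 genes with a window. The 6 were Slc38a2, Slc37a4, Slc37a3, Slc39a9, Slc7a8 and Slc6a16. Slc37a4 was just over 2-fold higher in PB-Gbx2 and the others differed by less than 2-fold in either direction. TAAT, which is contained in TAATTA, was present on either strand in 46.0% of these carriers and 58.5% of all genes with a window. The genes with a window include genes without a level in the 2 libraries, whereas every carrier has one. These shares therefore do not compare carriers with the other genes measured here.

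Taken over all 171 carriers, levels were close to the background of the table. At least 2-fold higher in PB-Gbx2 were 11 carriers (6.43%, background 5.14% of all genes), and at least 2-fold lower were 8 (4.68%, background 5.26%). The median log2 ratio was -0.06 for carriers and 0.00 for all genes. Above 0 were 79 carriers (46.2%, background 49.2%), below 0 were 90 (52.6%, background 48.9%), and 2 were at 0. In the 128 carriers with a level of 100 or more in at least 1 library, 5 were at least 2-fold higher (3.91%, background 2.46%) and 5 lower (3.91%, background 2.37%). Among the 32 that reached 1000, Slc30a2 alone passed 2-fold (3.12%, background 1.98%). A 1.5-fold threshold over all levels gave 20 carriers higher (11.7%, background 11.6%) and 21 lower (12.3%, background 12.2%). The authors' deposited table gives no carrier an adjusted p under 0.05 (background 0.234% of genes) and 8 carriers an unadjusted p under 0.05 (4.68%, background 3.74%).

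The spread of the ratios depended on level. The SD of log2 ratios was 0.93 over the 43 carriers below 100 in both libraries, 0.67 over the 96 between 100 and 1000, and 0.41 over the 32 above, against 0.996, 0.55 and 0.35 over all genes of the same levels. Genes were therefore also placed among those in the same twentieth of mean level. Outside the middle 95% of such genes lay 11 carriers (6.43%, background 5.11%). Higher in PB-Gbx2 were Slc11a1, Slc30a2, Slc27a3, Slc38a2, Slc16a9 and Slc26a9, and lower were Slc5a5, Slc45a1, Slc17a7, Slc1a4 and Slc1a5.

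**Figure D1:**
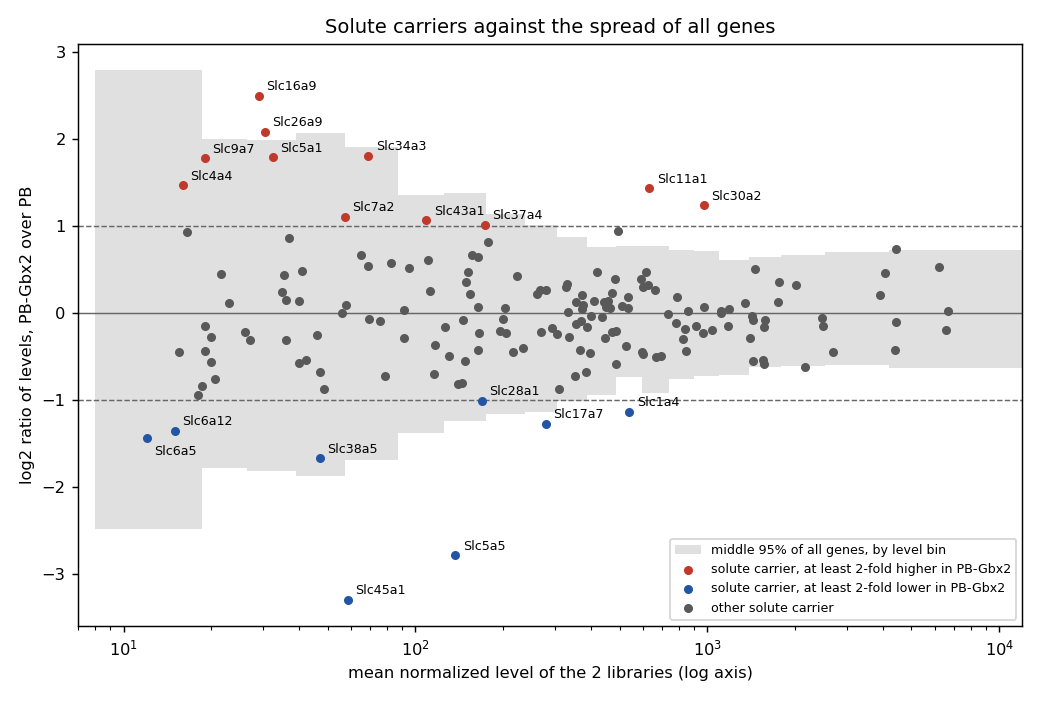
Log2 ratio of levels (PB-Gbx2 over PB) against the mean normalized level of the 2 libraries (log axis) for the 171 solute carriers, 1 point per gene, with the middle 95% of all genes in each twentieth of level as grey blocks and dashed lines at 2-fold. Slc11a1 and Slc30a2 lie above the block at their level, and Slc5a5, Slc45a1, Slc17a7 and Slc1a4 below it, while Slc4a4, Slc9a7 and Slc6a5 pass 2-fold inside the block of low-level genes.

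Levels of different genes were compared per kilobase of the longest GENCODE M21 transcript. The nucleoside carrier Slc29a1 stood first, at 3309 per kilobase in PB-Gbx2 and 2297 in PB, followed by the amino acid carriers Slc38a4 (1552 per kilobase in PB-Gbx2 and 1779 in PB) and Slc7a5 (1067 in PB-Gbx2 and 1432 in PB). The phosphate carrier Slc20a1, the creatine carrier Slc6a8, the taurine carrier Slc6a6, Slc3a2, Slc1a5, Slc38a2 and the vesicular nucleotide carrier Slc17a9 completed the 10 highest. Summed per kilobase over all 171 carriers, the level was 30378 in PB-Gbx2 and 30228 in PB. By class, the sum was lower in PB-Gbx2 for amino acid carriers (7656 in PB-Gbx2 and 9013 in PB) and higher for nucleoside carriers (3765 in PB-Gbx2 and 2841 in PB), where Slc29a1 made up most of it in both libraries.

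**Figure D2:**
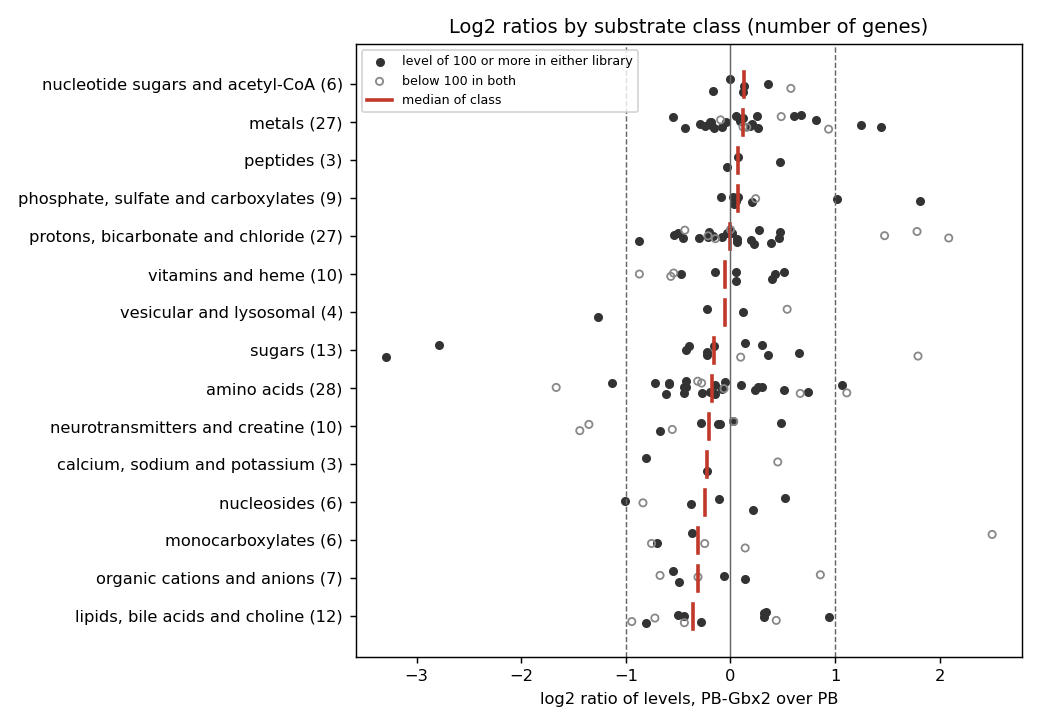
Log2 ratio of levels (PB-Gbx2 over PB) of each solute carrier by substrate class, with the number of genes in brackets, filled points for genes at 100 or more in at least 1 library, open points for the rest, red bars for class medians and dashed lines at 2-fold. Class medians lie between -0.36 for lipid, bile acid and choline carriers and 0.13 for nucleotide sugar and acetyl-CoA carriers, and every class holds genes on both sides of 0.

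Classes were set by family number alone, so a class can hold genes with another substrate and miss some carriers of its own. Slc6a15, a neutral amino acid carrier, was placed with neurotransmitters and creatine. By this placing, amino acid carriers formed the class with the most genes, 28, and 19 of them were lower and 9 higher in PB-Gbx2. Over all genes, 48.9% were below 0 and 49.2% above. Their median log2 ratio was -0.17, also over the 22 that reached a level of 100, of which 15 were below 0. At least 2-fold apart were 4 carriers, 2 in each direction (background 5.14% of all genes higher and 5.26% lower).

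In family 1, the glutamate and neutral amino acid carriers, each of the 5 listed genes was lower in PB-Gbx2, with a median of -0.58. Slc1a4 (ASCT1), which exchanges alanine, serine and cysteine, stood at 338 in PB-Gbx2 and 743 in PB, 2.20-fold lower, at percentile 0.55 of genes of similar level. Slc1a5 (ASCT2), the main glutamine exchanger, stood at 1710 in PB-Gbx2 and 2618 in PB, 1.53-fold lower, at percentile 2.48. The glutamate carrier Slc1a3 stood at 388 in PB-Gbx2 and 582 in PB, Slc1a1 at 142 in PB-Gbx2 and 150 in PB, and Slc1a6 at 18 in PB-Gbx2 and 22 in PB. Slc1a4 was the single gene of the family past 2-fold. Slc1a1 lay at percentile 46.8 and Slc1a6 at percentile 38.8 of genes of similar level. Slc1a1 shares 31.9% of its exon bases with an opposite-strand locus. Over all genes, 48.9% were lower in PB-Gbx2, and this family is 1 of 45. Its shared direction was not tested. The authors' deposited table lists Slc1a4 with an adjusted p of 0.685.

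The heavy chain and the best known light chain of the heteromeric carriers were on the lower side. The heavy chain Slc3a2 (4F2hc) stood at 2276 in PB-Gbx2 and 3092 in PB, 1.36-fold lower, at percentile 4.69. The light chain Slc7a5 (LAT1), which brings in leucine and other large neutral amino acids in exchange for glutamine, stood at 3753 in PB-Gbx2 and 5038 in PB, 1.34-fold lower, at percentile 8.28. These values lay inside the middle 95% of genes of similar level. The light chains Slc7a7 (y+LAT1) and Slc7a6 (y+LAT2), which exchange cationic for neutral amino acids, differed in direction: Slc7a7 stood at 507 in PB-Gbx2 and 690 in PB, and Slc7a6 at 724 in PB-Gbx2 and 603 in PB. Slc7a8 (LAT2) was low, at 32 in PB-Gbx2 and 40 in PB.

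The cationic amino acid carriers, which take up arginine and lysine, also did not share a direction. Slc7a1 (CAT1) stood at 2414 in PB-Gbx2 and 2509 in PB, a 1.04-fold difference. Slc7a3 (CAT3) stood at 1248 in PB-Gbx2 and 1871 in PB, a log2 ratio of -0.58, at percentile 3.72. Slc7a2 (CAT2), at a low level, stood at 79 in PB-Gbx2 and 36 in PB, 2.19-fold higher, at percentile 89.7, inside the spread of genes of that level.

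Family 38, the sodium-coupled neutral amino acid carriers, had 9 genes, 3 higher and 6 lower (background 49.2% of all genes higher and 48.9% lower). Its sum per kilobase in PB-Gbx2 was 1.01 times that in PB. Slc38a2 (SNAT2), the carrier that is induced when cells lack amino acids, stood at 5549 in PB-Gbx2 and 3321 in PB, 1.67-fold higher, at percentile 97.7. Its relatives differed less or the other way. Slc38a1 (SNAT1) stood at 868 in PB-Gbx2 and 961 in PB, and Slc38a4 (SNAT4) at 6102 in PB-Gbx2 and 6994 in PB. Slc38a3 (SNAT3), which moves glutamine, stood at 266 in PB-Gbx2 and 440 in PB, 1.65-fold lower, and the low-level Slc38a5 (SNAT5) at 22 in PB-Gbx2 and 72 in PB, 3.27-fold lower. Of the family 43 carriers, Slc43a1 (LAT3) stood at 148 in PB-Gbx2 and 70 in PB, 2.11-fold higher, at percentile 95.7.

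**Figure D3:**
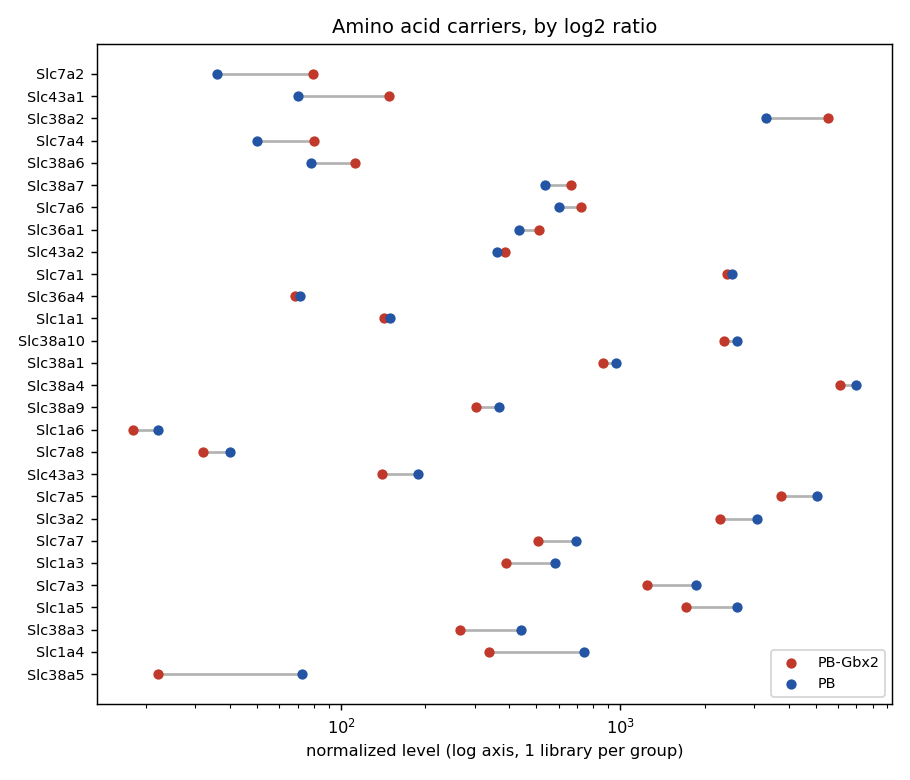
Normalized level (log axis) of each of the 28 amino acid carriers in the PB-Gbx2 library (red) and the PB library (blue), 1 library per group, ordered by log2 ratio. Slc1a4, Slc1a5, Slc7a3, Slc3a2 and Slc7a5 lie lower in PB-Gbx2, and Slc38a2 is the gene above a level of 1000 that lies higher there.

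Metal carriers numbered 27, with 16 higher and 11 lower in PB-Gbx2 and a median of 0.12. Over all genes, 49.2% were above 0 and 48.9% below. Slc11a1 (NRAMP1), a carrier of divalent metals known from the phagosomes of macrophages, stood at 925 in PB-Gbx2 and 341 in PB, 2.71-fold higher, at percentile 99.7. The close relative Slc11a2 (DMT1), which takes up iron in most cells, stood at 970 in PB-Gbx2 and 1107 in PB. It thus differed by 1.14-fold, in the other direction. Slc30a2 (ZnT2), which loads zinc into vesicles, stood at 1366 in PB-Gbx2 and 576 in PB, 2.37-fold higher, at percentile 99.2. The authors' deposited table lists an adjusted p of 0.155 for Slc11a1 and 0.206 for Slc30a2.

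The other zinc carriers of family 30, which lower cytosolic zinc, differed by at most 1.20-fold: the exporter Slc30a1 stood at 400 in PB-Gbx2 and 346 in PB, and Slc30a5 at 836 in PB-Gbx2 and 736 in PB. Family 39, the zinc importers, was split, with 6 genes higher and 5 lower. Slc39a14 (ZIP14), which also takes up iron and manganese, stood at 1159 in PB-Gbx2 and 1696 in PB, 1.46-fold lower, and Slc39a4 (ZIP4), the zinc importer of the gut, at 719 in PB-Gbx2 and 970 in PB. On the other side, Slc39a13, of the Golgi and its vesicles, stood at 226 in PB-Gbx2 and 128 in PB, and Slc39a3 at 192 in PB-Gbx2 and 120 in PB. Slc39a7 shares 80.7% of its annotated exon bases with a same-strand locus, so its low level (48 in PB-Gbx2 and 34 in PB) is uncertain.

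The copper importer Slc31a1 stood at 1537 in PB-Gbx2 and 1624 in PB, and ferroportin, Slc40a1, the iron exporter, at 38 in PB-Gbx2 and 34 in PB. The magnesium carrier Slc41a1 stood at 1813 in PB-Gbx2 and 1664 in PB, and Slc41a3 of the same family at 133 in PB-Gbx2 and 87 in PB, 1.53-fold higher, at percentile 84.3.

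**Figure D4:**
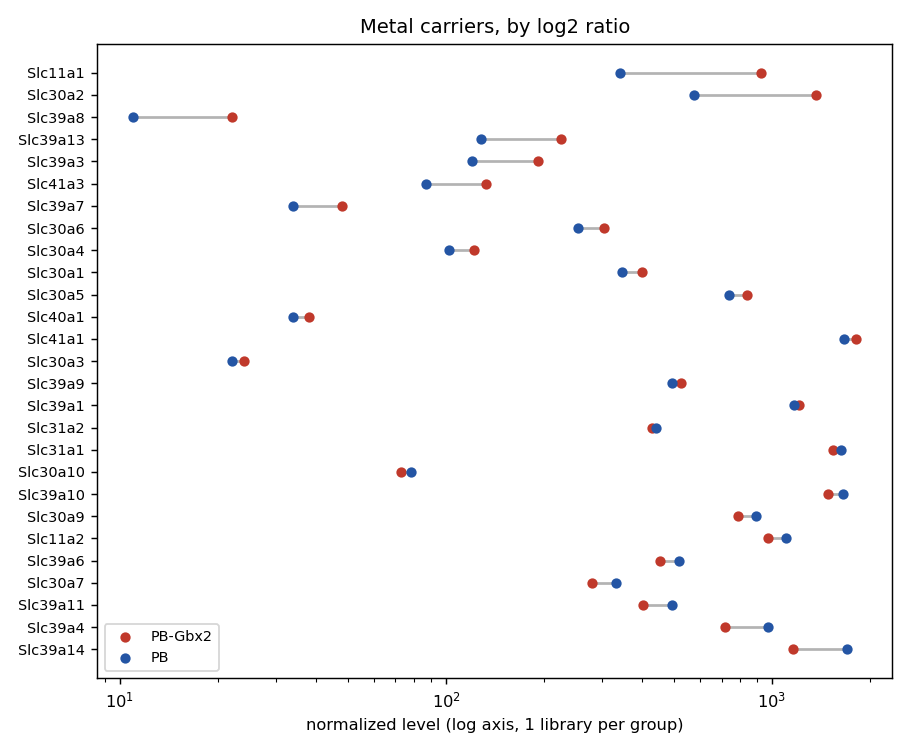
Normalized level (log axis) of each of the 27 metal carriers in the PB-Gbx2 library (red) and the PB library (blue), 1 library per group, ordered by log2 ratio. Slc11a1 and Slc30a2 are the 2 genes at least 2-fold apart, both higher in PB-Gbx2, and Slc39a14 and Slc39a4 lie at the lower end.

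The carriers of the sugar class included the most extreme low ratios of all 171. Slc5a5, the sodium-iodide symporter of the thyroid, which is in a sodium-coupled sugar family but carries iodide, stood at 34 in PB-Gbx2 and 240 in PB, 7.06-fold lower, at percentile 0.14. The authors' deposited table lists it with an adjusted p of 0.0883, the lowest of any carrier. Slc45a1, a proton-linked glucose carrier described in brain, stood at 10 in PB-Gbx2 and 107 in PB, 10.7-fold lower. The sodium-glucose carrier Slc5a1 (SGLT1) went the other way at a low level, 51 in PB-Gbx2 and 14 in PB.

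The rest of the class was within 2-fold. GLUT4, Slc2a4, stood at 202 in PB-Gbx2 and 266 in PB, and the intracellular Slc2a8 at 894 in PB-Gbx2 and 1043 in PB. The inositol carriers were split, with Slc5a3 at 312 in PB-Gbx2 and 420 in PB and Slc5a11 at 200 in PB-Gbx2 and 127 in PB. Slc45a4, a relative of Slc45a1, stood at 1977 in PB-Gbx2 and 1536 in PB, 1.29-fold higher.

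Carriers known from neurons did not share a direction. Slc17a7 (VGLUT1), which fills synaptic vesicles with glutamate, stood at 164 in PB-Gbx2 and 397 in PB, 2.42-fold lower, at percentile 1.52. On the other side were Slc6a15, a neutral amino acid carrier of the brain (176 in PB-Gbx2 and 126 in PB), and the vesicular amine carrier Slc18a2 (82 in PB-Gbx2 and 56 in PB). Beside these carriers, 4 of the 5 listed neural markers were lower in PB-Gbx2 (background 48.9% of all genes), by 1.32-fold (Ncam1) to 1.77-fold (Elavl3). Sox1 stood at 56 in PB-Gbx2 and 10 in PB. None of the 5 markers was at 0, and their part in the carriers' values was not tested. The glycine carrier Slc6a5 (6 in PB-Gbx2 and 18 in PB) and the betaine carrier Slc6a12 (8 in PB-Gbx2 and 22 in PB) passed 2-fold inside the spread of genes at such levels. The abundant members of family 6 hardly differed: the taurine carrier Slc6a6 stood at 6740 in PB-Gbx2 and 6646 in PB, and the creatine carrier Slc6a8 at 4286 in PB-Gbx2 and 4600 in PB. The glycine carrier Slc6a9 stood at 92 in PB-Gbx2 and 90 in PB, and shares 30.2% of its exon bases with an opposite-strand gene.

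Nucleoside carriers of the equilibrative family 29 did not share a direction. Slc29a1 (ENT1), which lets nucleosides equilibrate across the plasma membrane, stood at 7332 in PB-Gbx2 and 5090 in PB, 1.44-fold higher, at percentile 94.8. Slc29a2 (ENT2) was also higher, at 280 in PB-Gbx2 and 241 in PB, whereas Slc29a3 (752 in PB-Gbx2 and 814 in PB) and Slc29a4 (458 in PB-Gbx2 and 596 in PB) were lower. The concentrative, sodium-coupled Slc28a1 (CNT1) stood at 112 in PB-Gbx2 and 226 in PB, 2.02-fold lower, at percentile 4.97 and just past the 2-fold line, and its relative Slc28a3 at 13 in PB-Gbx2 and 24 in PB.

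Phosphate and sugar-phosphate carriers held 2 further genes past 2-fold, both higher in PB-Gbx2. Slc34a3 (NaPi-IIc), a phosphate carrier of the kidney, stood at 108 in PB-Gbx2 and 30 in PB, 3.60-fold higher, at percentile 97.1. Slc37a4, which brings glucose 6-phosphate into the endoplasmic reticulum, stood at 232 in PB-Gbx2 and 114 in PB, 2.04-fold higher, at percentile 93.8 and just past the 2-fold line. With a pseudocount of 5 in place of 1, Slc37a4 (log2 ratio 0.99) and Slc28a1 (-0.98) did not reach 2-fold. The main phosphate importer Slc20a1 (PiT1) stood at 4166 in PB-Gbx2 and 3610 in PB, and Slc20a2 at 866 in PB-Gbx2 and 854 in PB. The other family 37 genes, Slc37a1, Slc37a2 and Slc37a3, differed by at most 1.06-fold.

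Carriers that set pH, volume and chloride had a median of 0.00 over 27 genes. The 3 past 2-fold, Slc26a9 (50 in PB-Gbx2 and 11 in PB), Slc9a7 (30 in PB-Gbx2 and 8 in PB) and Slc4a4 (24 in PB-Gbx2 and 8 in PB), were higher at low levels. The sodium-bicarbonate carrier Slc4a7 was 1.45-fold lower (1264 in PB-Gbx2 and 1834 in PB). Of the cation-chloride carriers, Slc12a7 (KCC4) stood at 4706 in PB-Gbx2 and 3410 in PB, 1.38-fold higher, and Slc12a2 (NKCC1) at 544 in PB-Gbx2 and 522 in PB. The anion exchanger Slc4a2 (AE2) stood at 435 in PB-Gbx2 and 504 in PB, and Slc26a10 at 218 in PB-Gbx2 and 400 in PB, 1.83-fold lower.

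Lipid and choline carriers had a median of -0.36 over 12 genes, but of 0.02 over the 8 that reached a level of 100. The fatty acid transport proteins of family 27, which couple uptake to acyl-CoA formation, were split. Slc27a3 stood at 650 in PB-Gbx2 and 338 in PB, 1.92-fold higher, at percentile 98.8, just short of the 2-fold line. Slc27a4 stood at 694 in PB-Gbx2 and 554 in PB, while Slc27a1 (554 in PB-Gbx2 and 784 in PB) and Slc27a2 (105 in PB-Gbx2 and 184 in PB) were lower. The choline carrier Slc44a1 stood at 2238 in PB-Gbx2 and 1788 in PB, and Slc44a2 at 1262 in PB-Gbx2 and 1537 in PB.

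No carrier of vitamins or heme passed 2-fold. The thiamine carrier Slc19a2 stood at 1715 in PB-Gbx2 and 1202 in PB, 1.43-fold higher, at percentile 95.7. Both riboflavin carriers were on the higher side, Slc52a2 at 673 in PB-Gbx2 and 512 in PB and Slc52a3 at 256 in PB-Gbx2 and 190 in PB. The folate carriers hardly differed, with Slc19a1 at 472 in PB-Gbx2 and 454 in PB and Slc46a1 at 206 in PB-Gbx2 and 198 in PB. The heme carrier Slc48a1 stood at 504 in PB-Gbx2 and 700 in PB.

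The remaining classes held 1 gene past 2-fold. Slc16a9, a monocarboxylate family member that carries carnitine in humans, stood at 50 in PB-Gbx2 and 8 in PB, 6.25-fold higher, at percentile 99.2. It shares 23.5% of its exon bases with an opposite-strand locus, and whether the counting used strand is not given in the sources used here. Slc16a6, at 88 in PB-Gbx2 and 144 in PB, shares 23.5% likewise. The carnitine carrier Slc22a5 (OCTN2) stood at 120 in PB-Gbx2 and 176 in PB, and Slc22a17, a receptor for lipocalin-2, at 480 in PB-Gbx2 and 435 in PB. The sodium-calcium exchanger Slc8a2 stood at 101 in PB-Gbx2 and 178 in PB, 1.76-fold lower. The oligopeptide carrier Slc15a1 stood at 486 in PB-Gbx2 and 349 in PB and Slc15a2 at 460 in PB-Gbx2 and 438 in PB. Of the family 35 nucleotide sugar carriers, the CMP-sialic acid carrier Slc35a1 stood at 460 in PB-Gbx2 and 422 in PB, and the UDP-galactose carrier Slc35a2 at 276 in PB-Gbx2 and 310 in PB. Slc35a5, of the same family, stood at 99 in PB-Gbx2 and 66 in PB, a log2 ratio of 0.58, at percentile 78.2. The acetyl-CoA carrier Slc33a1 of the endoplasmic reticulum stood at 167 in PB-Gbx2 and 130 in PB, and it too shares exon bases with an opposite-strand locus.

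Of the genes that power or accompany the carriers, the sodium-potassium pump had 6 of 7 listed subunits, 4 higher and 2 lower in PB-Gbx2. Its subunit Atp1b3 stood at 2434 in PB-Gbx2 and 1456 in PB, 1.67-fold higher. Of 15 accessory and regulatory proteins, 4 were higher, 10 lower and 1 equal. The background for both lists was 49.2% of all genes higher and 48.9% lower. Emb, a chaperone of monocarboxylate carriers, stood at 234 in PB-Gbx2 and 982 in PB, 4.20-fold lower, at percentile 0.28 of genes of similar level. Bsg, the other such chaperone, stood at 8502 in PB-Gbx2 and 10266 in PB, at percentile 14.2. The scaffold Pdzk1 stood at 69 in PB-Gbx2 and 26 in PB, 2.65-fold higher, at percentile 92.0, inside the spread of genes of that level. The kinase Sgk1, which raises the surface amount of several carriers, stood at 4701 in PB-Gbx2 and 2630 in PB, at percentile 98.9.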

How the data were processed

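RNA of 2 libraries, PB-Gbx2 and PB, was sequenced from a TruSeq RNA kit, per the labels' protocols. STAR and the build mm9 are named in the submitters' processing notes, while the counting tool, the annotation and any strand setting were not stated. The deposited levels are whole numbers that the authors normalized and rounded, treated as a score and not as read counts, so no count model was used and depth, intervals and floors are unknown. The deposited ratio and log2 ratio of the authors run PB over PB-Gbx2 and were not printed; the p-value and adjusted p-value of the authors are quoted only as theirs. Rows that share a symbol were summed.

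Log2 ratios, PB-Gbx2 over PB, used a pseudocount of 1, which understates changes at low levels, and fold values are quotients of the deposited levels. Each gene was placed among those in its twentieth (1 of 20 bins) of mean level. Lengths (all 171 carriers matched) and exon overlap came from GENCODE M21. The procedure was tested on simulated data, which checks the calculation and says nothing about the scatter between single libraries. Members, classes and lists were chosen with earlier results of these data known.

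Genes were named by rule: Gbx2, carriers with an adjusted p under 0.05 in the authors' table, the 12 highest and 12 lowest ratios at a level of 100 or more, the 10 highest per kilobase, each class's extremes and most abundant gene, a set list, and genes of other lists past 2-fold. Others, such as low-level carriers past 2-fold and further family members, were chosen after their values were seen, as were the 3 promoters. Alternatives were pseudocounts of 0.1 and 5, minimum levels of 10 and 100, rescaling by the median ratio, a 1.5-fold threshold, plasma membrane families alone, and keeping the 6 genes that the rule leaves out. Some genes named by these rules are left out of the text. Python 3.11.15, numpy 2.4.6, pandas 2.3.3 and matplotlib 3.10.9 were used.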

Additional observations from a re-analysis of the deposited data

How the results depend on the processing

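With a minimum level of 100, 5 carriers were at least 2-fold higher and 5 lower in PB-Gbx2, and a 1.5-fold threshold gave 20 higher and 21 lower. The other 12 recomputed counts stayed within 1.5 times the reported 11 and 8 under both other pseudocounts, a minimum level of 10, rescaling, with the 6 genes that the rule leaves out, and without carriers that share over 20 percent of their exon bases with another gene (chosen after seeing the data). With a pseudocount of 5, Slc37a4 (0.99) and Slc28a1 (-0.98) lost their 2-fold calls, which left 10 higher and 7 lower. The median of all carriers was between -0.09 (plasma membrane families) and -0.05 (minimum level of 100). Of 105 recomputed class medians, none moved by 1.5-fold, and 2 changed sign, both with a minimum level of 100. None of 210 recomputed ratios of named genes changed sign, but this was fixed in advance and says nothing about stability. A pseudocount added to both levels cannot change the sign of a ratio, and rescaling left the ratios as they were. Rescaling and a minimum of 10 changed no call, as the deposited values already share one distribution and no gene lies below 10 in both libraries, and so say nothing about stability. No paired analysis was possible because PB-Gbx2 and PB are single libraries, so that none could be left out. Depth is unknown, which limits carriers at low levels most.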

Other observations

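Other membrane transport genes, listed with earlier results of these data known, were set beside the solute carriers. Of 3 listed aquaporins, Aqp3, a channel for water and glycerol, stood at 1634 in PB-Gbx2 and 380 in PB, 4.30-fold higher, at percentile 100. Aqp5 (40 in PB-Gbx2 and 32 in PB) and Aqp11 (104 in PB-Gbx2 and 129 in PB) were low in both. Of 12 ABC transporters, 4 were higher and 8 lower in PB-Gbx2 (background 49.2% of all genes higher and 48.9% lower). The efflux pump Abcg2 stood at 520 in PB-Gbx2 and 861 in PB, 1.66-fold lower, the cyclic nucleotide exporter Abcc5 at 3384 in PB-Gbx2 and 2518 in PB, 1.34-fold higher, and Abcb4, at 10 in PB-Gbx2 and 23 in PB, alone passed 2-fold. Of the organic anion transporting polypeptides, 5 of 12 had a row, with Slco4a1 at 964 in PB-Gbx2 and 1185 in PB and the prostaglandin carrier Slco2a1 at 34 in PB-Gbx2 and 16 in PB, 2.13-fold higher.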
